A study of Homo sapiens with 6 samples.

Results

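The S100 genes encode small calcium-binding proteins, and 10 of them are described here in the human melanoma line A-375: S100A1, S100A2, S100A3, S100A4, S100A6, S100A10, S100A11, S100A13, S100A16 and S100B. The rule lists them by name and holds no measured value, but they were chosen with earlier results of these data known. All 10 had a row among the 21631 genes of the count table, and all 10 passed the filter on low counts that left 16910 genes for testing. RNA was sequenced from 6 libraries of A-375 cells, 3 labelled with a guide against SEPHS2 (sgSEPHS2) and 3 labelled with a control guide (sgCTRL). SEPHS2 makes selenophosphate, the selenium donor for selenocysteine, and the series describes its guide as giving knockout cells. The labels give no treatment, time, clone or pool for either group, so a difference between founding cells and an effect of the guide cannot be told apart. They also do not say whether replicates were separate cultures, so each p-value measures the spread between these libraries, which may be technical.

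An S100 protein carries a pair of EF-hands, helix-loop-helix units that hold calcium, and most members act as dimers. Calcium opens a surface on the dimer that grips a partner such as an annexin, a myosin or another cytoskeletal protein. Some members also leave the cell and bind receptors such as RAGE, encoded by AGER. Most human S100 genes lie in a cluster on the long arm of chromosome 1, while S100B lies on chromosome 21. S100B protein is a standard tissue and serum marker of melanoma, and S100A4 is widely studied for its association with metastasis.

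In the sgSEPHS2-labelled libraries 4 members were higher, 3 were lower and 3 did not pass the test. S100A2 rose 2.23-fold, S100A4 rose 1.40-fold, S100A11 rose 1.32-fold and S100A6 rose 1.17-fold. S100A13, S100A3 and S100A16 fell, with levels 1.29-fold, 1.23-fold and 1.17-fold higher in the control libraries. S100A10, S100B and S100A1 were within 1.05-fold of the control group in either direction. A gene passed at an adjusted p under 0.05 in edgeR's quasi-likelihood test, with adjustment over every gene tested. The 7 of 10 members that passed stand beside 45.4% of all tested genes, 22.0% called higher and 23.4% called lower. At an adjusted p under 0.01 the count was again 7 of 10, beside 34.7% of all genes. The groups did not overlap for the same 7 members, 4 higher and 3 lower, beside 52.1% of all genes, 26.5% higher and 25.6% lower. These shares are over tested genes of every level, and a gene with more reads is called more readily. The members' control levels ran from the 26.1st to the 98.8th percentile of tested genes. No share matched for level was taken, so these counts are not read as a response of the family. The median log2 fold change was 0.02 over the 10 members and 0.01 over all tested genes, and the median size without sign was 0.26 and 0.20. In bulk RNA, fewer cells of a kind and less RNA per cell cannot be told apart, which holds for each gene below.

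The 6 libraries held 34606145 to 43405579 counted reads each. SEPHS2 itself was not lower in the sgSEPHS2-labelled libraries, with 173 ± 3.85 CPM, the count scaled to library size, against 156 ± 3.32 CPM in the control libraries (SD, n = 3 each; log2 fold change 0.15, edgeR adjusted p = 0.00401). With a trend in exon length and GC content removed, as described below for the members, it was 0.08 (edgeR adjusted p = 0.0699). A gene-level count does not show whether a guide disrupted the reading frame, so each direction below rests on the labels. Of 7 melanocyte lineage markers, SOX10 was abundant, at 569 ± 13 CPM in sgSEPHS2-labelled and 619 ± 15.6 CPM in control libraries, and MITF was at 18.5 ± 0.668 and 23.5 ± 1.30 CPM. The pigment genes PMEL, MLANA, TYRP1, DCT and TYR averaged at most 1.30 CPM in either group, with TYR at 0 in all control libraries. Summed markers of fibroblasts, endothelium and myeloid cells reached at most 25.8, 9.61 and 7.87 CPM in any library. Of the 6 fibroblast markers, COL1A1, COL1A2 and FAP were lower (log2 fold changes -0.61, -2.23 and -1.22) and LUM was higher (0.76), all of them at low levels within the sum above. The myeloid sum was 7.48 to 7.87 CPM in sgSEPHS2-labelled and 4.41 to 5.36 CPM in control libraries, most of it LYZ, and the part of these markers in the results was not tested.

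The start regions of 4 neighbouring members are shown first, because these genes lie close together and did not all move the same way. S100A6, S100A4, S100A3 and S100A2 follow each other on the minus strand of chromosome 1, with gaps of 7629, 1522 and 11849 bases between the annotated genes and the low-level S100A5 inside the first gap. S100A6, S100A4 and S100A2 were higher in the sgSEPHS2-labelled libraries, and S100A3, which lies between S100A4 and S100A2, was lower. Each sequence is the 250 bases before the RefSeq start on GRCh38.p14, read 5′ to 3′ along the gene's strand. S100A2 has 2 annotated starts, of which the upstream one is printed, and the other held no match to the motifs below. Capitals mark a match, on either strand, to any of 8 motifs. They were the TATA box as TATAAA, the AP-1 site as TGANTCA, the Sp1 site as GGGCGG and the E-box as CACGTG. Next were the M-box core bound by MITF as CATGTG, the antioxidant response element core as TGACNNNGC and the TEAD site as GGAATG. The last was an NF-kB string, not printed here, that is narrower than the NF-kB consensus. The S100A6 stretch is chr1:153535992-153536241, that of S100A4 is chr1:153545807-153546056, that of S100A3 is chr1:153549259-153549508 and that of S100A2 is chr1:153565845-153566094.
S100A6: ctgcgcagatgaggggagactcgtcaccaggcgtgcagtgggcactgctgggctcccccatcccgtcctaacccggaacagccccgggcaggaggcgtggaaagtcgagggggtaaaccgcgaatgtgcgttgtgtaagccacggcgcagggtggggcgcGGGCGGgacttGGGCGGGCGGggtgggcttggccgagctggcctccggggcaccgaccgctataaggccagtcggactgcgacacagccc
S100A4: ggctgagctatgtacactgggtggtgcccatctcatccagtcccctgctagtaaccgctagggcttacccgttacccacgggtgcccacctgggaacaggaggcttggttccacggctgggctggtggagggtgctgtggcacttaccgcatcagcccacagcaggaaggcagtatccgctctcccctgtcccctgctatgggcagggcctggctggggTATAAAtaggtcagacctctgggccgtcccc
S100A3: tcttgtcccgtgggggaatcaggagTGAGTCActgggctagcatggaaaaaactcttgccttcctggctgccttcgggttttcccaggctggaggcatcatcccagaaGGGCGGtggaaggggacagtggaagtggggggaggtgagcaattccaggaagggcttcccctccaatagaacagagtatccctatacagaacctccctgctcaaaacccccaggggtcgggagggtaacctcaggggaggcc
S100A2: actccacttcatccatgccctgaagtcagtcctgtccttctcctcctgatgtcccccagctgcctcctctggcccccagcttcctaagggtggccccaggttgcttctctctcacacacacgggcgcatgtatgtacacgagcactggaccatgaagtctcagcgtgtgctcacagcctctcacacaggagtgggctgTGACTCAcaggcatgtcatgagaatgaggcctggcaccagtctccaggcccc

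S100A6 had a GC content of 70.0% and 24 CpG pairs in this window, and the other 3 had 4 to 7 CpG pairs, against a median of 11 over 35116 RefSeq start regions. S100A6 held 3 Sp1 matches, of which a pair overlap each other. The S100A4 window held a TATA box 31 bases before its start. That motif was present in 2 of the members' 13 annotated starts and in 10.7% of all start regions. S100A2 held an AP-1 match, TGACTCA, that begins 52 bases before its start, and S100A3 held another, TGAGTCA, that begins 225 bases before its start. AP-1 matches occurred in 6.57% of all start regions, and these were the only members with one among the 9 that matched a RefSeq start; S100B did not match. Sp1 was found in 6 of the 13 annotated starts of these members and in 42.6% of all start regions. The E-box letters and the narrow NF-kB string were found in none of them, and in 6.34% and 1.73% of all start regions. Other forms of the NF-kB site were not searched, so their absence is not shown. The remaining letters, of the M-box core, the antioxidant element and TEAD, were in 2, 1 and 1 of the 13 starts. None of these were among the 4 printed windows. Over all start regions the shares were 9.42%, 10.9% and 11.9%. A match describes letters only, and the AP-1 matches stood before a gene that rose and a gene that fell.

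S100A2, best known from basal epithelial cells, moved the furthest of the members. It had 19.2, 18.2 and 16.8 CPM in the sgSEPHS2-labelled libraries, against 7.85, 8.06 and 8.37 CPM in the control libraries. Every library labelled sgSEPHS2 lay far above every control. Its log2 fold change was 1.15, SE 0.08 (edgeR adjusted p = 2.03e-10), while 6.92% of all tested genes were called with at least a 2-fold change in either direction and 1.25% were called higher by that much. S100A2 was a modest gene in these cells, at the 38.3rd percentile of control levels among tested genes, from 2117 reads over the sgSEPHS2-labelled libraries and 998 over the controls. TP63, a transcription factor of basal epithelium, was below the filter, at 0.153 ± 0.0476 and 0.212 ± 0.0811 CPM in sgSEPHS2-labelled and control libraries.

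S100A2 is also a gene of basal keratinocytes, so keratinocyte markers were read beside it. Of a list of 6, KRT14 and KRT10 had a row and were analysed here, and both were higher in the sgSEPHS2-labelled libraries. KRT14 was at 1.42 ± 0.401 CPM, against 0.317 ± 0.0883 CPM in controls (log2 fold change 2.14, edgeR adjusted p = 3.26e-05). KRT10 was at 42.3 ± 1.65 CPM, against 34.6 ± 0.635 CPM. Together they summed to 42.4 to 45.3 CPM in sgSEPHS2-labelled and 34.2 to 35.4 CPM in control libraries, and their part in the S100A2 result was not tested.

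The 3 tested genes whose profile over the 6 libraries was nearest to that of S100A2 were CEP76, USP14 and SPP1. Likeness was the root-mean-square difference of mean-centred log2 CPM among 9956 genes of at least 10 CPM, and it was 0.0377, 0.0437 and 0.055 for them. CEP76 and USP14 lie on chromosome 18 and SPP1 on chromosome 4, with log2 fold changes of 1.10, 1.10 and 1.2. With 6 libraries in 2 groups, this measure picks genes with a like fold change.

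S100A4 binds non-muscle myosin heavy chains and is linked to cell motility. It had 133, 151 and 135 CPM in the sgSEPHS2-labelled libraries, against 92.5, 105 and 101 CPM in the controls. The groups did not overlap, and the spread inside each was smaller than the gap between the means. The log2 fold change was 0.49, SE 0.05 (edgeR adjusted p = 1.81e-07). Myosin partners were read beside it. MYH9, the heavy chain of non-muscle myosin IIA, was at 324 ± 26.5 and 308 ± 7.09 CPM in sgSEPHS2-labelled and control libraries (edgeR adjusted p = 0.224), and MYH10 fell by 0.19 on the log2 scale (edgeR adjusted p = 8.17e-04). MYH9 passed as higher with the length and base composition trend removed (log2 fold change 0.24, edgeR adjusted p = 3.42e-05). PPFIBP1, or liprin beta, another S100A4 partner, fell to 440 ± 8.69 CPM, against 684 ± 13.2 CPM in controls (log2 fold change -0.64, edgeR adjusted p = 3.41e-11).

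S100A11 binds annexin A1. It had 158, 158 and 143 CPM in sgSEPHS2-labelled libraries, against 113, 118 and 116 CPM in the controls, again with no overlap. Its log2 fold change was 0.41, SE 0.05 (edgeR adjusted p = 2.85e-07). RefSeq lists 10 pseudogenes named after S100A11, more than for any other member, and how reads that map to several places were counted is not given in the sources used here, so its count is less certain. ANXA1, its partner, was at 1651 ± 33.7 CPM in sgSEPHS2-labelled and 1564 ± 24.9 CPM in control libraries, without overlap but short of the threshold (log2 fold change 0.08, edgeR adjusted p = 0.118).

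S100A6, or calcyclin, was the most abundant member. It had 629, 667 and 612 CPM in the sgSEPHS2-labelled libraries, against 522, 556 and 561 CPM in the controls. Every library labelled sgSEPHS2 was above every control, by a margin that was small beside the level. The log2 fold change was 0.22, SE 0.04 (edgeR adjusted p = 3.20e-04). CACYBP, the calcyclin-binding protein, rose to 233 ± 15.4 CPM, against 179 ± 6.32 CPM in controls (log2 fold change 0.38, edgeR adjusted p = 1.13e-06). SUGT1, a chaperone adaptor that also binds S100A6, fell by 0.21 on the log2 scale (edgeR adjusted p = 9.78e-04).

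**Figure D1:**
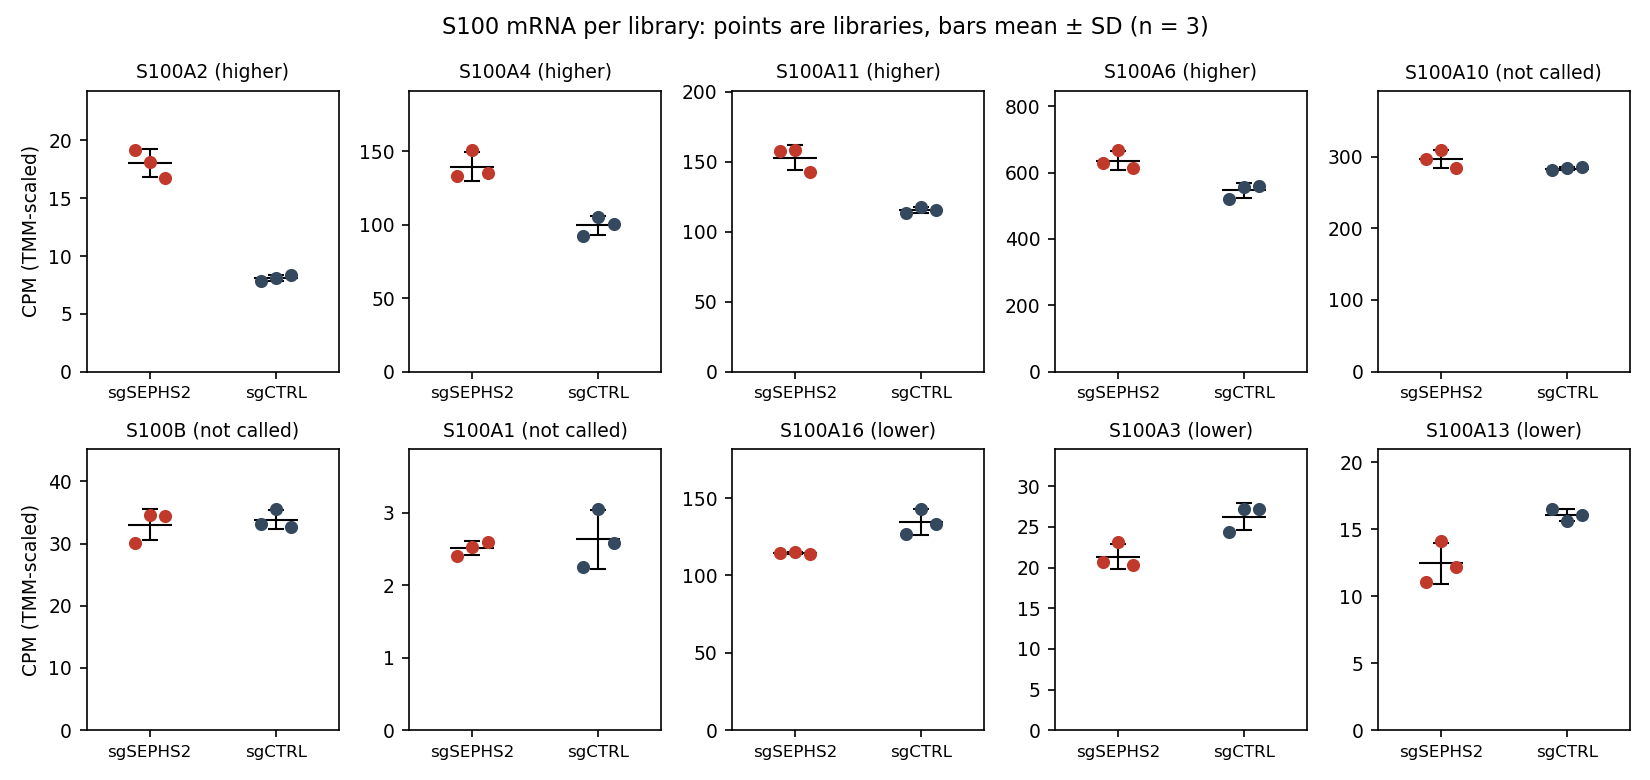
Levels of the 10 S100 members in each library, in CPM with TMM scaling, sgSEPHS2-labelled libraries at left and control libraries at right, with bars for mean ± SD (n = 3). The groups do not overlap for the 7 members called higher or lower, and they overlap for S100A10, S100B and S100A1.

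S100A13, which takes part in the export of FGF1 and interleukin 1 alpha outside the classical secretory route, was one of the 3 members that fell. It had 11.1, 14.1 and 12.2 CPM in the sgSEPHS2-labelled libraries, against 16.5, 15.6 and 16.1 CPM in the controls. The log2 fold change was -0.36, SE 0.08 (edgeR adjusted p = 0.00124). AL162258.1, a transcript with no row in the count table, shares 34.7% of the S100A13 exon length on the same strand. Some reads may belong to that transcript, which makes the count of S100A13 less certain. Its cargo gene IL1A fell to 6.77 ± 0.657 CPM, against 14.1 ± 1.61 CPM in controls (log2 fold change -1.05, edgeR adjusted p = 2.61e-08). SYT1, a synaptotagmin of the same export complex, fell by 0.59 on the log2 scale (edgeR adjusted p = 1.72e-07), and FGF1 was at 4.79 ± 0.614 and 4.37 ± 0.110 CPM in sgSEPHS2-labelled and control libraries (edgeR adjusted p = 0.437).

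S100A3 is a cysteine-rich member that binds zinc and is known from the hair cuticle. It had 20.6, 23.1 and 20.3 CPM in the sgSEPHS2-labelled libraries, against 24.4, 27.2 and 27.2 CPM in the controls. The highest library labelled sgSEPHS2 lay only just under the lowest control. The log2 fold change was -0.30, SE 0.07 (edgeR adjusted p = 9.69e-04). S100A16, a widely expressed member, had 115, 115 and 114 CPM in the sgSEPHS2-labelled libraries, against 127, 143 and 134 CPM in the controls, and the log2 fold change of -0.23 had an SE of 0.05 (adjusted p = 3.07e-04 in edgeR). Its sgSEPHS2-labelled libraries were nearly level with each other, and the controls were more spread.

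S100A10, also called p11, has lost calcium binding and forms a complex with annexin A2 at the membrane. It had 297, 309 and 284 CPM in the sgSEPHS2-labelled libraries, against 281, 284 and 286 CPM in the controls, and the groups overlapped. Its log2 fold change was 0.07, SE 0.04 (edgeR adjusted p = 0.22). Its partner ANXA2 rose to 893 ± 16 CPM, against 691 ± 11.4 CPM in controls (log2 fold change 0.37, SE 0.04, edgeR adjusted p = 1.17e-07). AHNAK, a giant scaffold protein that the S100A10 and annexin A2 complex binds, fell to 1612 ± 106 CPM, against 2120 ± 116 CPM (log2 fold change -0.40, edgeR adjusted p = 1.16e-06).

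S100B had 30.2, 34.6 and 34.5 CPM in the sgSEPHS2-labelled libraries, against 33.2, 35.6 and 32.7 CPM in the controls. The groups overlapped, and the log2 fold change was -0.03 with an SE of 0.06 (adjusted p = 0.709 in edgeR). Among genes whose proteins bind S100B, STK38, the kinase NDR, rose by 0.30 on the log2 scale (edgeR adjusted p = 1.44e-04). MDM2, a ubiquitin ligase, rose to 156 ± 3.87 CPM, against 115 ± 2.05 CPM in controls (log2 fold change 0.43, edgeR adjusted p = 2.37e-08).

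S100A1, the heart and muscle member that acts on calcium-handling proteins, was the lowest of the members. It had 2.40, 2.53 and 2.59 CPM in the sgSEPHS2-labelled libraries, against 2.25, 3.05 and 2.58 CPM in the controls, and its log2 fold change was -0.07 with an SE of 0.16 (adjusted p = 0.778 in edgeR). From 296 and 324 reads over the sgSEPHS2-labelled and control groups, a change of the size seen for S100A16 would be under 2 of its SEs. Its annotated exons share 28 bases with S100A13 on the opposite strand, and 16.8% of its exon length lies under an antisense transcript, so some of its reads may belong to these genes; the strand setting of the counting is not given in the sources used here. Of its calcium-handling partners, RYR2 rose to 12 ± 1.56 CPM, against 5.06 ± 0.883 CPM, RYR1 fell to 0.428 ± 0.171 CPM, against 1.38 ± 0.243 CPM (edgeR adjusted p = 4.41e-08 and 2.73e-04), and the calcium pump ATP2A2 had a log2 fold change of -0.03 (edgeR adjusted p = 0.647).

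The members differed widely in level. Per kilobase of exon, with every library scaled to the same sum (TPM, the field's length-scaled unit, with GENCODE 29 exon lengths), S100A6 averaged 2338 ± 68.6 in the sgSEPHS2-labelled libraries and 2123 ± 52.1 in the controls. It made up 48.1% to 48.4% of the summed TPM of the 10 members in the sgSEPHS2-labelled libraries and 47.6% to 48.5% in the controls. S100A11, S100A10, S100A4 and S100A16 followed, and S100A1 was last, at 7.79 ± 0.357 and 8.62 ± 1.15 TPM. The order in the sgSEPHS2-labelled libraries was S100A6, S100A11, S100A10, S100A4, S100A16, S100B, S100A3, S100A13, S100A2 and S100A1, where S100B and S100A3, and S100A13 and S100A2, overlapped between libraries. In the control libraries each gene stood above the next in all libraries, in the order S100A6, S100A10, S100A11, S100A4, S100A16, S100A3, S100B, S100A13, S100A2 and S100A1. Thus S100A11 stood above S100A10 in TPM in all 3 sgSEPHS2-labelled libraries and below it in all 3 controls, with ratios of 1.13, 1.08 and 1.07 against 0.854, 0.878 and 0.856.

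The balance between members of the cluster was also read inside each library, where library scaling plays no part. The TPM ratio of S100A2 to S100A3 was 0.565, 0.479 and 0.505 in the sgSEPHS2-labelled libraries, against 0.196, 0.181 and 0.188 in the controls. For S100A4 to S100A3 it was 7.42, 7.51 and 7.70, against 4.38, 4.47 and 4.28. For S100A6 to S100A4 it was 4.63, 4.33 and 4.42, against 5.51, 5.14 and 5.45. For S100A16 to S100A4 it was 0.442, 0.393 and 0.431, against 0.702, 0.696 and 0.681. The groups did not overlap in any of these 4 ratios. For S100A2 to S100A3, S100A4 to S100A3 and S100A16 to S100A4 this followed from the single genes, which had already separated in opposite directions. Summed over the 10 members, the level was 1414, 1493 and 1374 CPM in the sgSEPHS2-labelled libraries, against 1219, 1295 and 1283 CPM in the controls, and S100A6 alone carried the largest part of that sum.

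**Figure D2:**
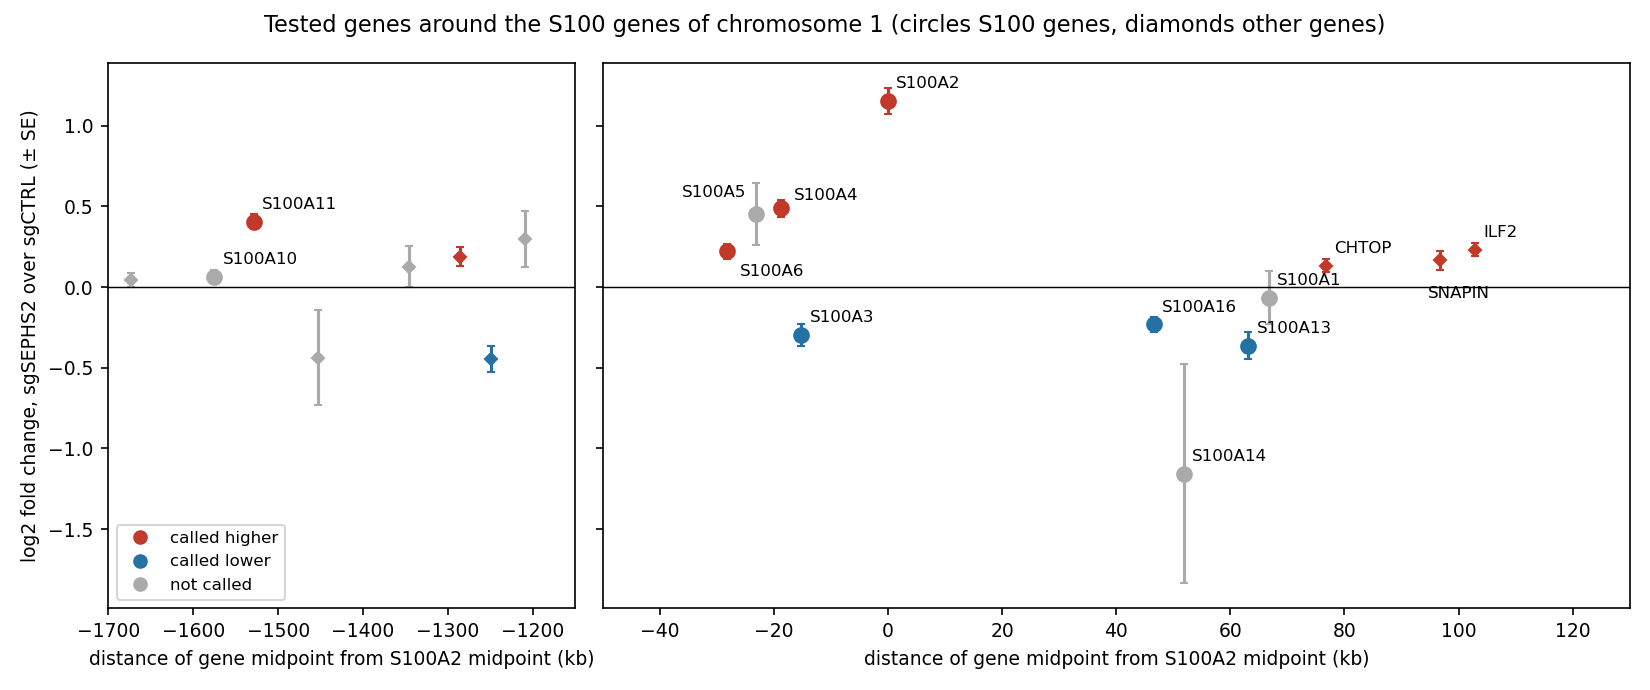
Log2 fold change of tested genes (sgSEPHS2 over sgCTRL, ± SE) against the distance of each gene's midpoint from that of S100A2 in kilobases; the left and right panels have different distance scales. S100A2, S100A4 and S100A6 lie above 0, S100A3, S100A16 and S100A13 lie below it, and CHTOP, SNAPIN and ILF2, which follow S100A13, lie slightly above it.

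The members on chromosome 1 did not move as a block. From S100A6 to S100A13 the annotated cluster spans 153534599 to 153634361 on GRCh38.p14, while S100A10 (151982915 to 151993859) and S100A11 (152032506 to 152037004) lie apart from it, with 1498 kb between S100A11 and S100A6. Along the cluster the log2 fold changes were 0.22 for S100A6, 0.49 for S100A4, -0.30 for S100A3, 1.15 for S100A2, -0.23 for S100A16 and -0.36 for S100A13. Inside the same span S100A1, at -0.07, was not called, nor were the low-level S100A5 at 0.45 and S100A14 at -1.16. In a window from 500 kb before S100A10 to 500 kb past S100A13, 33 genes other than the members were tested, S100A5 and S100A14 among them. Of the 33, 11 were called higher and 1 lower, beside 22.0% higher and 23.4% lower of all genes, so the calls leaned upward. The window was not read with the length and GC trend removed, so the part of that trend in the lean was not tested. Both directions together made 36.4%, below the 45.4% of all genes, and the median log2 fold change was 0.13. The largest rises among those called were SLC27A3 and RAB13, at 0.57 and 0.56 (edgeR adjusted p = 8.61e-06 and 3.03e-07). CHTOP, SNAPIN and ILF2, the next genes past S100A13, had log2 fold changes of 0.13, 0.17 and 0.23 (edgeR adjusted p = 0.0144, 0.0284 and 8.14e-05). The one called lower was FLG, itself a fused-type relative of the S100 genes that encodes filaggrin, at -0.44 (edgeR adjusted p = 1.04e-04); it overlaps the antisense gene FLG-AS1, called higher at 0.19.

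Of 11 further S100 genes, S100A5, S100A14, S100G, S100P and S100Z were analysed here. None of the 4 tested passed edgeR or DESeq2, and all were low, at 2.00 CPM or less on average in either group, with 1 of them, S100A5, at an unadjusted p under 0.05. S100A5, which lies between S100A6 and S100A4 and shares annotated bases with S100A4, had 2.08, 1.97 and 1.95 CPM in the sgSEPHS2-labelled libraries, against 1.49, 1.57 and 1.30 CPM in the controls. Those values do not overlap, yet its log2 fold change of 0.45, SE 0.19, missed the threshold (edgeR adjusted p = 0.0582). S100A14 had 10, 5 and 0 reads in the sgSEPHS2-labelled libraries and 9, 11 and 16 in the controls (log2 fold change -1.16, edgeR adjusted p = 0.18). It passed in limma-voom (adjusted p = 0.0426) and in edgeR without sgSEPHS2 replicate 1 (log2 fold change -2.24, adjusted p = 0.0319). S100P and S100Z had log2 fold changes of -0.26 and 0.25 (edgeR adjusted p = 0.556 and 0.579), and S100G had 7 reads over the sgSEPHS2-labelled libraries and 3 over the controls and was not tested.

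Annexins, which bind membranes when calcium is present and serve as partners of several S100 proteins, were read next. Of 9 tested, 5 rose and none fell in edgeR, beside 22.0% higher and 23.4% lower of all genes, and the median log2 fold change of the list was 0.20. ANXA5 rose to 441 ± 15.6 CPM, against 370 ± 7.60 CPM in controls, and ANXA6 rose to 181 ± 4.27 CPM, against 158 ± 5.24 CPM (edgeR adjusted p = 2.98e-05 and 5.64e-04). ANXA7 rose by a log2 fold change of 0.24 (edgeR adjusted p = 1.19e-04). ANXA3 rose from very few reads, 63 over the sgSEPHS2-labelled libraries against 13 over the controls (edgeR adjusted p = 6.36e-04). ANXA11, a partner of S100A6, had a log2 fold change of 0.07 (edgeR adjusted p = 0.188), and passed at 0.19 with that trend removed (edgeR adjusted p = 3.01e-04). Of 20 other binding partners tested, 6 rose and 8 fell, beside 22.0% and 23.4% of all genes, with a median of 0.02. KPNA2, an importin, rose by 0.51 (edgeR adjusted p = 1.06e-09).

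Among S100 receptors, 2 of 7 rose and none fell in edgeR, with a median log2 fold change of 0.04, a share of calls below the 45.4% of all genes. ALCAM, bound by S100B, rose to 55.7 ± 1.75 CPM, against 46.8 ± 2.26 CPM in controls (log2 fold change 0.25, edgeR adjusted p = 3.64e-04). MCAM, an adhesion molecule of melanoma cells, rose by 0.12 (adjusted p = 0.0177 in edgeR), and it did not pass without sgCTRL replicate 2, sgCTRL replicate 3 or sgSEPHS2 replicate 2 (edgeR adjusted p = 0.0517, 0.103 and 0.0619). AGER was at 7.38 ± 0.814 CPM in sgSEPHS2-labelled and 6.11 ± 0.757 CPM in control libraries (edgeR adjusted p = 0.0663), and TLR4 at 109 ± 9.18 and 114 ± 4.12 CPM (edgeR adjusted p = 0.352). Both passed without sgSEPHS2 replicate 1, with log2 fold changes of 0.36 and -0.13 (edgeR adjusted p = 0.0199 and 0.0231), and AGER also without sgCTRL replicate 1 (edgeR adjusted p = 0.0405).

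Other EF-hand proteins had calls in both directions, as did the whole table. Of 32 tested, 13 rose and 8 fell, beside 22.0% and 23.4% of all genes, with a median log2 fold change of 0.05. CALB2, the neuronal calcium buffer calretinin, rose 5.2-fold from a low level, to 8.05, 6.34 and 6.59 CPM in the sgSEPHS2-labelled libraries, against 1.42, 1.16 and 1.43 CPM in the controls (edgeR adjusted p = 6.38e-11). The calmodulin gene CALM2 rose by a log2 fold change of 0.43 (edgeR adjusted p = 3.77e-08), and CALM3 was at 0.08 (edgeR adjusted p = 0.154), passing at 0.12 without sgSEPHS2 replicate 3 (edgeR adjusted p = 0.0414). The neuronal calcium sensors HPCAL1, NCALD and NCS1 fell, with log2 fold changes of -0.54, -0.77 and -0.54 (edgeR adjusted p = 5.48e-10, 2.38e-08 and 1.14e-07).

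**Figure D3:**
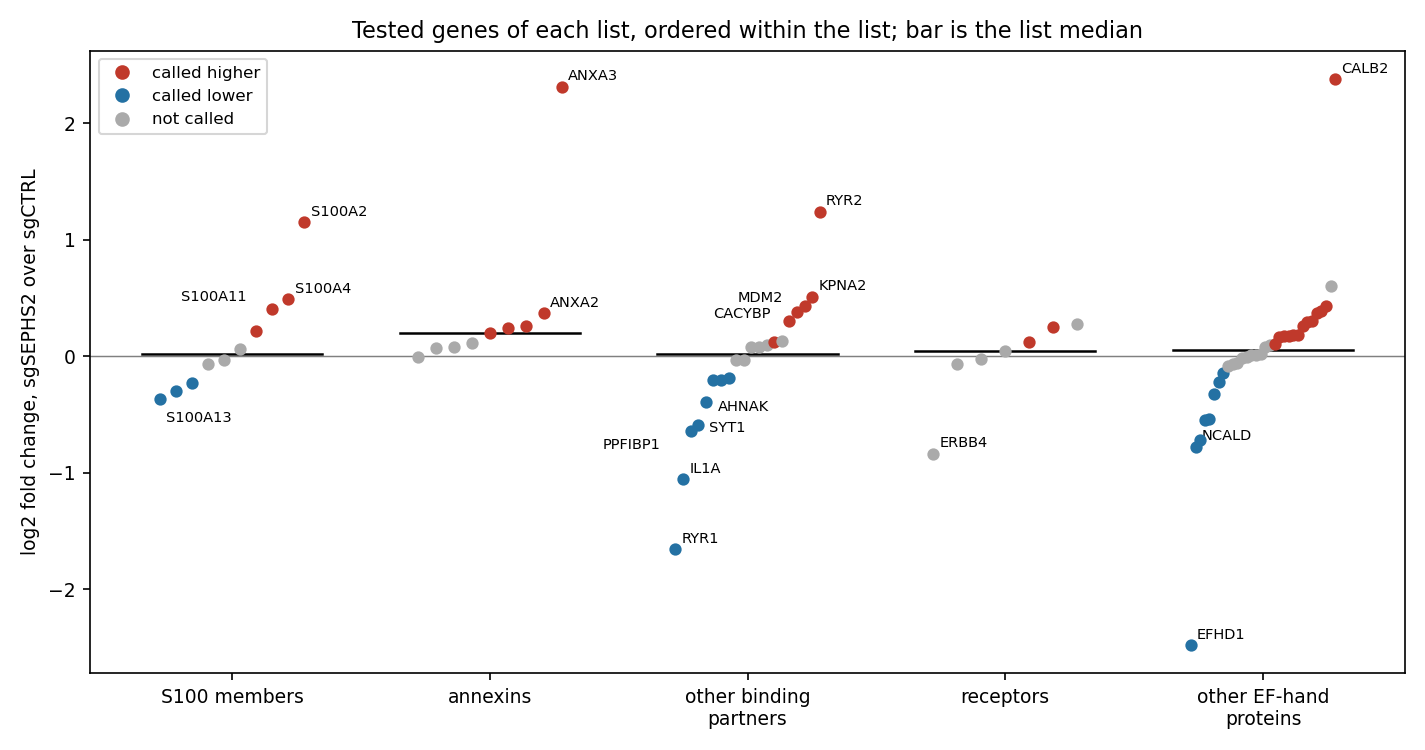
Log2 fold change (sgSEPHS2 over sgCTRL) of every tested gene in 5 lists, coloured by call and ordered by value within a list, with the list median as a bar. Called annexins lie above 0, while S100 members, other partners and other EF-hand proteins have called genes on both sides.

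S100 transcripts are short. The exon lengths of the members ran from 594 to 1613 bases, against a median of 3445 over tested genes. With the dependence of fold changes on exon length and base composition smoothed out, all 10 members had a lower log2 fold change, by shifts of -0.08 to -0.19. The 7 calls and their directions held in that setting, but S100A4, S100A11 and S100A6 came to 0.32, 0.22 and 0.10 (edgeR adjusted p = 8.19e-07, 1.20e-04 and 0.0235), less than the values above by over 1.5 times. Among the listed annexins, partners, receptors and EF-hand proteins named above, the same setting took ANXA2, ANXA5 and ANXA7 to 0.24, 0.12 and 0.13. It took CALM2 to 0.28, AHNAK to -0.19, MYH10 to -0.11 and SUGT1 to -0.13. Each of these was smaller in size by over 1.5 times and still called in edgeR. The chromosome 1 neighbours outside the S100 lists, the cell type markers and the nearest profiles to S100A2 were not read in that setting. S100B was called lower in that setting (-0.17, edgeR adjusted p = 0.0164), and S100A10 turned to -0.08 (edgeR adjusted p = 0.0583).

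**Figure D4:**
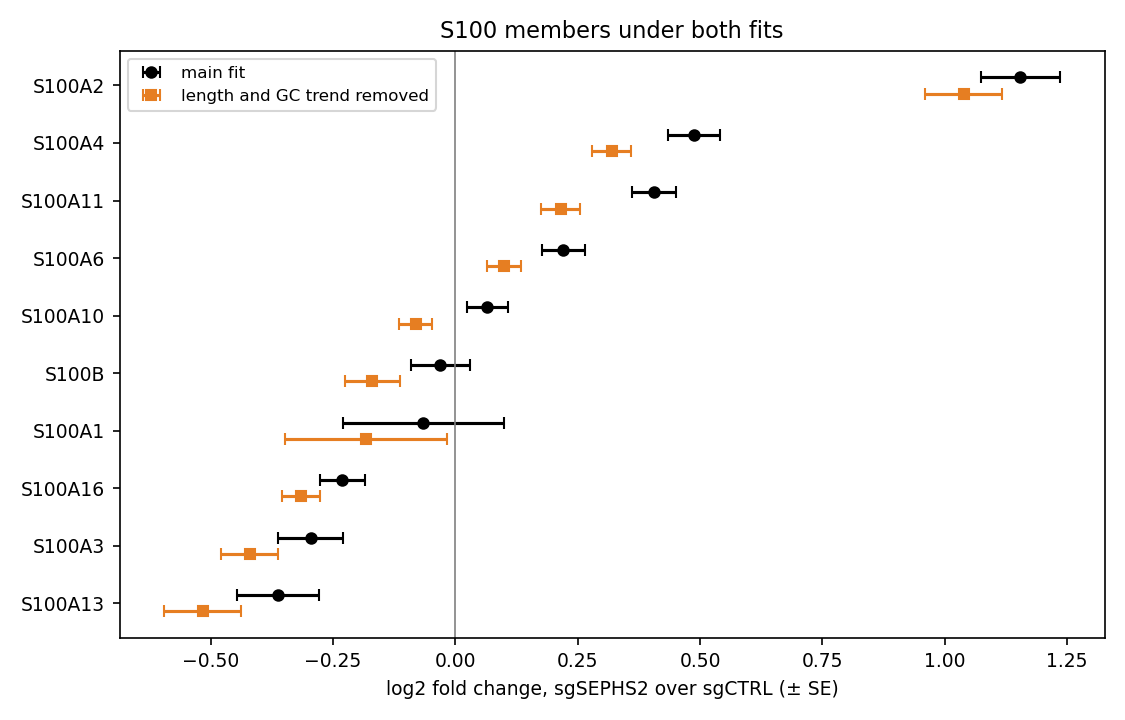
Log2 fold change (sgSEPHS2 over sgCTRL, ± SE) of each member as tested and with the length and GC trend removed. All 10 squares lie left of their circles, S100A2 stays near 1 in both settings, and S100A10 lies on opposite sides of 0.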

How the data were processed

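Raw counts, 1 column a library and 1 row a gene symbol, are what the authors deposited. The submitters' processing notes name featureCounts 2.0.6, SAMtools 1.21, HISAT2 2.2.1, FastQC 0.12.1 and GRCh38. Annotation, strand setting and the treatment of multiply mapped reads: not given in the sources used here. Groups and replicate numbers came from sample titles.

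All 16910 genes that passed edgeR's expression filter were tested together in R 4.3.3 with edgeR 4.0.16 (TMM, quasi-likelihood, two-sided, Benjamini-Hochberg), with no block. CPM used TMM-scaled library sizes. The standard error is the log2 fold change divided by the root of F. The procedure was also run on simulated counts with far fewer changed genes than were called here, and that outcome is not reported here. Depth is given above; counting precision limits low genes most.

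The members and lists were chosen with earlier results of these data known. Named genes were every member and other S100 gene, up to 6 called genes a list by adjusted p, partners and receptors of members, and the 3 nearest profiles to the leading member. The neighbour window and the motifs were chosen after the data were seen. Positions and start regions are RefSeq's (GRCh38.p14); lengths and GC, available for 95.3% of tested genes, are from GENCODE 29. Some list genes are counted but not reported here by name.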

Additional observations from a re-analysis of the deposited data

How the results depend on the processing

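Alternatives were other scaling factors (RLE, upper quartile), no filter, 1 CPM in 3 libraries, DESeq2 1.42.0, limma-voom (limma 3.58.1), a replicate block, an adjusted p under 0.01, removal of the length and GC trend, and each library left out in turn. The number of members called was 7 in all of them except the length and GC setting, where it was 8, with 4 higher and 4 lower. Over all genes the calls numbered 5863 to 7774, and 6339 to 7411 with 1 library left out.

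S100A10 was reversed at -0.0813 with the length and GC trend removed, and S100B was called there at -0.17; the removed trend itself makes that shift. With 1 library left out, S100A1 ranged from -0.169 to 0.0559 and S100B from -0.0634 to 0.0286, both changing sign without sgCTRL replicate 2, and S100B also without sgSEPHS2 replicate 1, always uncalled. The cause was not tested. The called members kept their calls and signs throughout. Of the other S100 genes, 1 was called in limma-voom, and 0 to 1 with 1 library left out. Of the receptors, 1 was called at an adjusted p under 0.01, and 1 to 4 with 1 library left out.

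In the fit with the replicate number as a block, 7 members and 7774 genes in all were called. Same-numbered libraries had correlated deviations of 0.0673, 0.0936 and 0.0651, all under 0.1, and not every library matched its own number best, so the numbers are not taken as pairs. Depth limits S100A1 and the other S100 genes under about 3 CPM.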
